A study of Sus scrofa with 8 samples.

Results

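Carnitine carries long-chain fatty acids into mitochondria, and 8 genes of its synthesis, uptake and use were followed here in liver RNA of sows with and without a lactation. The genes were taken by name (TMLHE, ALDH9A1, BBOX1, SLC22A5, CPT1A, SLC25A20, CPT2 and CRAT), and every probe set whose deposited gene symbol or, for provisional symbols, gene title named one of them was used. A probe set is a group of short oligonucleotides on the array that together report on 1 transcript. Of the 8 genes, 5 had a probe set, which is 5 of 8143 genes named on the array, with 6 probe sets in all out of 23999 tested. TMLHE, ALDH9A1 and SLC25A20 were found through their titles, since the deposited table listed them under the provisional symbols LOC100515702, LOC100153809 and LOC100524459. BBOX1, SLC22A5 and CPT2 had no probe set under these names and were not analysed here.

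Liver RNA of female pigs (Sus scrofa) was hybridised to Affymetrix Porcine arrays. The labels distinguish a control group of non-lactating sows and a group of lactating sows, each of 8 animals, and RNA of 2 sows in equal amounts made each of 4 pools per group. The sources used here give no breed, age, parity, diet or day of lactation. Each pool counts as 1 replicate (n = 4 per group), and because it averages 2 sows, the spread between pools understates that between animals. Values of single sows were not analysed here.

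Carnitine is built from trimethylated lysine residues that are released when proteins are broken down. TMLHE hydroxylates trimethyllysine in mitochondria, ALDH9A1 oxidises the trimethylaminobutyraldehyde formed from it to butyrobetaine, and BBOX1 converts butyrobetaine to carnitine in liver and kidney. SLC22A5, also called OCTN2, takes carnitine up from blood. In the shuttle itself, CPT1A at the outer mitochondrial membrane transfers fatty acids from coenzyme A to carnitine, SLC25A20 exchanges the acylcarnitines for free carnitine across the inner membrane, and CPT2 gives the fatty acids back to coenzyme A inside. CRAT does the same transfer for acetyl and other short acyl groups. Malonyl-CoA, an intermediate of fatty acid synthesis, inhibits CPT1A, and in rodents the receptor PPAR alpha raises transcription of several of these genes during fasting.

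Arrays correlated at 0.991 to 0.994 within groups and at 0.984 to 0.991 between groups over all probe sets, and probe sets are not replicates of one another. The mean log2 signal of 9 hepatocyte markers lay at 14.52 to 14.57 in non-lactating and 14.49 to 14.59 in lactating pools, with a difference of -0.01. Of these markers 5 of 9 were lower and 1 passed the threshold, SERPINA1 (-0.32, limma adjusted p = 0.0212), and they are among the brightest probe sets, ALB holding the highest log2 signal of all arrays (15.22). Endothelial markers were lower in lactating pools for 8 of 8 genes, 4 of them past the threshold, with a mean log2 signal of 7.66 to 7.76 in non-lactating and 7.40 to 7.49 in lactating pools. Stellate cell and fibroblast markers were lower for 6 of 9, with 2 past the threshold and means of 8.94 to 9.16 against 8.46 to 9.01. T and NK cell markers were lower for 7 of 9, with CD8A past the threshold (-0.60, limma adjusted p = 0.0279) and means of 5.94 to 6.10 against 5.78 to 5.94. In bulk RNA, fewer cells of a type and less RNA per cell cannot be told apart, and the part of these markers in the results on carnitine genes was not tested. The signal at the 3' end minus that at the 5' end of control transcripts rises as RNA degrades. As the mean of 3 transcripts (GAPDH, actin and EF1a) it averaged 4.47 ± 0.40 (SD, n = 4) in non-lactating and 3.75 ± 0.29 (SD, n = 4) in lactating pools on the log2 scale. On this mean, pools lay at 4.14 to 5.02 in the non-lactating and 3.34 to 4.00 in the lactating group, without overlap. Taken singly, GAPDH separated the groups (lowest non-lactating pool 3.30, highest lactating pool 2.92). Actin (6.17 and 6.26) and EF1a (2.96 and 2.99) overlapped. RNA quality and lactation therefore cannot be told apart on the mean of 3 transcripts, which is the 3' minus 5' covariate used below.

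Across the 5 measured genes, the mean signal of the probe set standing for the gene was higher in lactating pools in every case, by 0.25 to 1.30 on the log2 scale with a median of 0.41. SLC25A20 was the only member gene past the threshold (limma, adjusted p below 0.05 over all probe sets), so that 1 of 5 genes rose and none fell. At the level of genes, 8.63% of 8143 passed, 6.12% as higher and 2.52% as lower in lactating pools. Counted by probe set, 1 of 6 passed, against 6.85% of all probe sets, 3.74% higher and 3.11% lower. At an unadjusted p below 0.05, 5 of 5 genes and 6 of 6 probe sets of the members passed, against 27.4% of all genes and 22.9% of all probe sets. Of these 6 probe sets, 5 were higher and 1, the dimmer one listed for CRAT, was lower in lactating pools. The median difference over all genes was 0.01. The members were chosen with earlier results of these data known, so the comparisons with all genes are descriptions only. For 3 of the 5 members, CPT1A, SLC25A20 and CRAT, the highest non-lactating pool lay below the lowest lactating pool, against 12.8% of all genes separated in this direction and 19.3% in either direction. By probe set this was 3 of 6, against 8.29% higher and 15.3% in either direction.

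**Figure D1:**
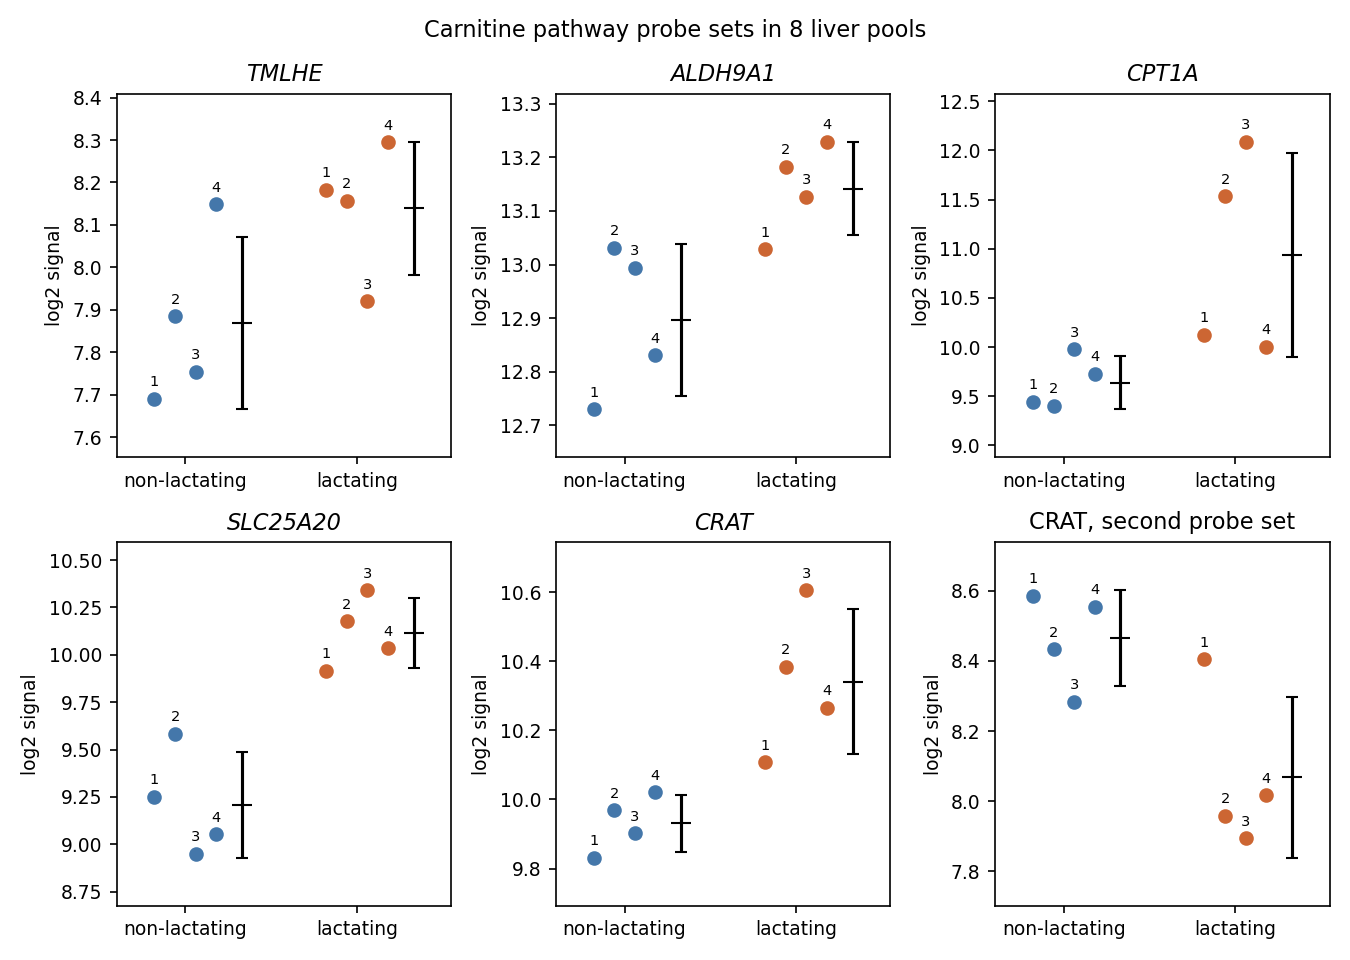
Log2 signal (vertical axis, scaled per panel) of the 6 probe sets in each non-lactating (blue) and lactating (orange) pool, numbered by pool, with black bars for the mean and SD of 4 pools. SLC25A20 shows a gap of 0.33 between the groups, CPT1A splits the lactating pools into a high and a low pair, and the second CRAT probe set runs the opposite way to the first.

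Among the synthesis genes, TMLHE, which starts the pathway, had log2 signals of 7.69, 7.88, 7.75 and 8.15 in non-lactating pools 1 to 4 and 8.18, 8.16, 7.92 and 8.29 in lactating pools 1 to 4. The groups overlapped, because lactating pool 3 lay below non-lactating pool 4, while the other lactating pools lay above all non-lactating ones. The difference was 0.27 ± 0.12 (SE), a ratio of 1.21, and did not pass (limma adjusted p = 0.207). Its 95% interval of 0.0070 to 0.53 reaches up to a ratio of 1.45. Its probes were placed on chromosome X at 123253103 to 123253710, plus strand. The annotation matched 11 probes to the predicted TMLHE transcript and 2 to other transcripts as well. Positions here are those of the deposited annotation, whose assembly is not named in words.

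ALDH9A1, the dehydrogenase of the third step, gave 12.73, 13.03, 12.99 and 12.83 in non-lactating pools and 13.03, 13.18, 13.13 and 13.23 in lactating pools. Only lactating pool 1 reached into the non-lactating range, lying 0.0026 below the highest non-lactating pool. The difference of 0.25 ± 0.09 (SE), a ratio of 1.19, did not pass either (adjusted p = 0.132, 95% interval 0.05 to 0.44). With the 3' minus 5' signal as a covariate the difference was 0.05 ± 0.11 (SE). That signal separated the groups without overlap, so the fit cannot tell its effect from that of lactation. The probe set lay on chromosome 4 at 88478155 to 88494199, plus strand, and 1 of its probes also matched another transcript. Neither measured synthesis gene therefore passed the test, and their intervals reach up to ratios of 1.45 for TMLHE and 1.36 for ALDH9A1.

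CPT1A, the entry step of the shuttle and the one that malonyl-CoA inhibits, showed the widest range among lactating pools of any member. Its log2 signal was 9.44, 9.40, 9.98 and 9.73 in non-lactating pools 1 to 4 and 10.12, 11.53, 12.09 and 10.003 in lactating pools 1 to 4. Lactating pools 2 and 3 stood 1.89 and 2.45 above the non-lactating mean, whereas pools 1 and 4 stood 0.49 and 0.37 above it. The lowest lactating pool cleared the highest non-lactating pool by only 0.03. The SD was 1.04 among lactating pools and 0.27 among non-lactating pools, a ratio of 3.86.

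The mean difference of CPT1A, 1.30 ± 0.42 (SE) or 2.46-fold, was the largest of the 5 members but did not pass (limma adjusted p = 0.0961). The 95% interval ran from 0.36 to 2.24, or 1.28-fold to 4.73-fold. This interval assumes equal variances, whereas the SD was 1.04 among lactating and 0.27 among non-lactating pools. Leaving out lactating pool 3 gave 0.92, and leaving out lactating pool 4 gave 1.61, in both cases without passing. In the authors' deposited table the unadjusted p-value of CPT1A was 0.0511. The CPT1A probe set was placed on chromosome 2 at 2507448 to 2536733, plus strand, and 11 probes matched its RefSeq transcript.

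SLC25A20, the carrier of the inner membrane, was more even. Its log2 signal was 9.25, 9.58, 8.95 and 9.05 in non-lactating pools and 9.92, 10.18, 10.34 and 10.03 in lactating pools. The groups did not overlap, and the gap between non-lactating pool 2 and lactating pool 1 was 0.33. SLC25A20 rose 1.88-fold, a log2 difference of 0.91 ± 0.14 (SE), with a 95% interval of 1.5-fold to 2.34-fold (limma adjusted p = 0.0127). Unlike for CPT1A, the SD was smaller among lactating pools (0.18) than among non-lactating pools (0.28). The probe set lay on chromosome 13 at 26450566 to 26477962, minus strand, with 11 probes matching the predicted transcript.

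The call for SLC25A20 held in 8 of 8 fits that left out a single pool, with differences of 0.82 to 1.03. The authors' deposited table gave SLC25A20 an unadjusted p-value of 0.00162 from an equal-variance test of each probe set on its own. Adjusted over all probe sets this became 0.0669, and 0 of 23999 probe sets passed with that test, while 4964 had an unadjusted p below 0.05. With the 3' minus 5' signal as a covariate the difference was 0.93 ± 0.24 (SE), with a limma adjusted p of 0.328 (unadjusted p = 0.00346). In that fit 0 of 23999 probe sets passed limma's threshold, and 2474 had an unadjusted p below 0.05. Since the covariate separated the groups without overlap, its effect and that of lactation cannot be told apart there. No conclusion is drawn from that fit.

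**Figure D2:**
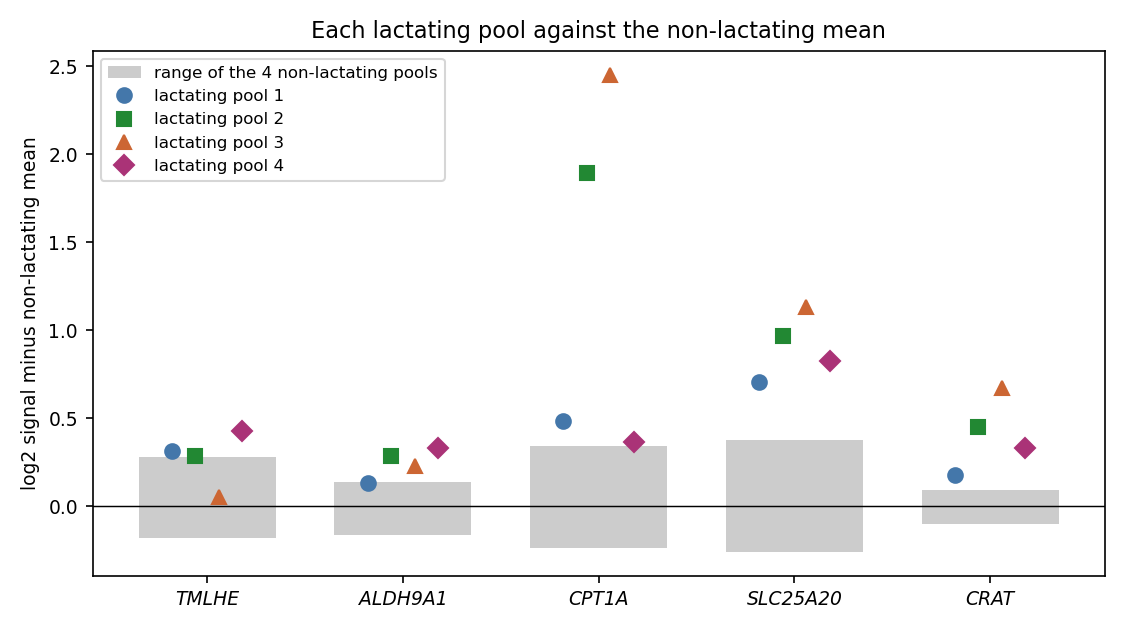
Log2 signal of each lactating pool minus the mean of the non-lactating pools (vertical axis) for the 5 measured genes, with grey bands for the range of the 4 non-lactating pools. Lactating pools 3 and 2 were highest for CPT1A, SLC25A20 and CRAT, and pool 4 was highest for TMLHE and ALDH9A1.

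CRAT, which buffers acetyl groups between coenzyme A and carnitine, was represented by both probe sets that the table lists under its symbol. The brighter one, which stands for the gene, gave 9.83, 9.97, 9.90 and 10.02 in non-lactating pools and 10.11, 10.38, 10.61 and 10.26 in lactating pools. All lactating pools lay above all non-lactating pools, with a gap of 0.09. The difference of 0.41 ± 0.11 (SE), or 1.33-fold, lay just outside the threshold (limma adjusted p = 0.0504). It passed in 4 of 17 alternatives: with an intensity trend and robust prior (adjusted p = 0.0497), with arrays centred on their medians (0.0380), without the dimmest 25% of probe sets (0.0456) and without lactating pool 1 (0.0299).

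The second CRAT probe set ran the other way. Its log2 signal was 8.59, 8.43, 8.28 and 8.55 in non-lactating pools and 8.40, 7.96, 7.89 and 8.02 in lactating pools. Lactating pools 2, 3 and 4 lay below all non-lactating pools and lactating pool 1 lay within their range. The difference was -0.40 ± 0.12 (SE) and did not pass (adjusted p = 0.0810). Without lactating pool 1 it passed (adjusted p = 0.0233). Averaging both probe sets left a difference of 0.01, which is a value of CRAT only if both report on that gene.

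The annotation of these probe sets differed in kind. The brighter one was placed on chromosome 1 at 284061566 to 284065048, minus strand, and was assigned to CRAT by overlap with the gene on the genome (grade B of the deposited annotation). The second one was placed at 2 sites of chromosome 8, at 38582956 to 38583351 (plus strand) and 38850181 to 38850576 (minus strand), and was assigned through a cluster of expressed sequence tags (grade E). The nearest probe set with a gene name to the latter site belonged to GUCY1B3, a subunit of soluble guanylate cyclase, at a distance of 661 bases. The alignment on chromosome 8 goes against the CRAT symbol of the second probe set, and its difference is not read here as a value of CRAT.

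Lactating pools ranked alike in CPT1A, SLC25A20 and CRAT at their upper end and differently in the synthesis genes. Among them, pool 3 was highest and pool 2 next for CPT1A, SLC25A20 and CRAT, while pool 3 was lowest for TMLHE. Non-lactating pools had no such shared order, with pool 3 highest for CPT1A and lowest for SLC25A20. Over the 8 pools, after each group's mean was subtracted, CPT1A and CRAT had a Pearson correlation of 0.83, SLC25A20 and CRAT of 0.52, and CPT1A and SLC25A20 of 0.32. CPT1A and TMLHE had -0.49, and ALDH9A1 and CPT1A 0.08. These are descriptions over 8 pools that share arrays and animals across genes, and no test was made.

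The same measure was used to find genes that varied like CPT1A and SLC25A20 within groups, among 6453 other named genes. Closest to CPT1A was GPAT4, a glycerol-phosphate acyltransferase of triglyceride synthesis, with a correlation of 0.99, log2 signals of 9.95 and 10.12 in lactating pools 2 and 3 and 9.61 and 9.60 in pools 1 and 4. PPYR1, TACC2, TRNT1 and TEKT1 followed at 0.96 to 0.98. None of these 5 passed the test between groups (adjusted p = 0.292 to 0.845). Close to SLC25A20 were DUOX1 at 0.98, ZFP106 at 0.96, AP3S2 at 0.94 and SLC25A17, a peroxisomal carrier, at 0.94. DUOX1, PPYR1 and TRNT1 had log2 signals below 4.91, the cut under which 25% of probe sets lie, in all 8 pools. DUOX1 varied over only 0.24 among lactating pools, PPYR1 over 0.32 and TRNT1 over 0.45.

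Genes on either side of the shuttle were described from 5 lists, of which 38 of 58 genes were measured. Over these, 4 rose and none fell, a share of 10.5% called, against 8.63% called and 6.12% called higher over all genes. Of the 38 genes, 32 had positive differences with a median of 0.24, against 52.6% positive differences and a median of 0.01 over all genes. These lists were chosen with earlier results of these data known, so the comparison is a description only. All 4 belonged to the enzymes of mitochondrial beta-oxidation, which take up the acyl groups that the shuttle delivers. There 14 of 14 measured members had positive differences, from 0.02 to 0.68 with a median of 0.30. At a limma unadjusted p below 0.05 there were 8 of these 14, and 14 of 38 over the 5 lists, against 27.4% of all genes.

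ETFDH, which passes electrons from acyl-CoA dehydrogenation to the respiratory chain, gave 9.44, 10.01, 9.79 and 9.69 in non-lactating and 10.25, 10.40, 10.69 and 10.29 in lactating pools. The groups were separate, and ETFDH rose by 0.68 ± 0.14 (SE, limma adjusted p = 0.0227), with 0.58 on its other probe set (adjusted p = 0.0376). HADHB, the thiolase subunit of the trifunctional protein, gave 10.49, 10.84, 10.67 and 10.65 in non-lactating and 10.98, 11.23, 11.39 and 11.34 in lactating pools, again without overlap. It rose by 0.57 ± 0.11 (SE, adjusted p = 0.0202) and by 0.93 on its other probe set (adjusted p = 0.0185). ACADL and ACADS, the dehydrogenases of long and short acyl-CoA, rose by 0.49 ± 0.12 (SE, adjusted p = 0.0371) and 0.41 ± 0.10 (SE, adjusted p = 0.0418), each with separate groups. With a single pool left out, ETFDH passed in 6 of 8 fits, HADHB in 4, ACADL in 2 and ACADS in 1, and none of the 4 passed without non-lactating pool 1 or without non-lactating pool 4.

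Further members of beta-oxidation did not pass. HADHA, the partner subunit of HADHB, differed by 0.54 ± 0.19 (SE, adjusted p = 0.133), ACADSB, which acts on branched short chains, by 0.41 ± 0.13 (SE, adjusted p = 0.0873), and ETFA, an electron carrier subunit, by 0.32 ± 0.10 (SE, adjusted p = 0.0833). The other probe set of ACADSB differed by 1.06 ± 0.30 (SE), with groups that did not overlap, and did not pass either (adjusted p = 0.0644). With single pools left out, each passed in 1 of 8 fits: HADHA without lactating pool 1, and ACADSB and ETFA without non-lactating pool 2. Lactating pool 3, the highest for CPT1A, held the highest lactating value in 8 of these 14 genes. Pool 1 held the lowest in 7, whereas for CPT1A the lowest was pool 4. How often each pool was highest or lowest over all genes was not counted, so these counts are descriptions only.

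**Figure D3:**
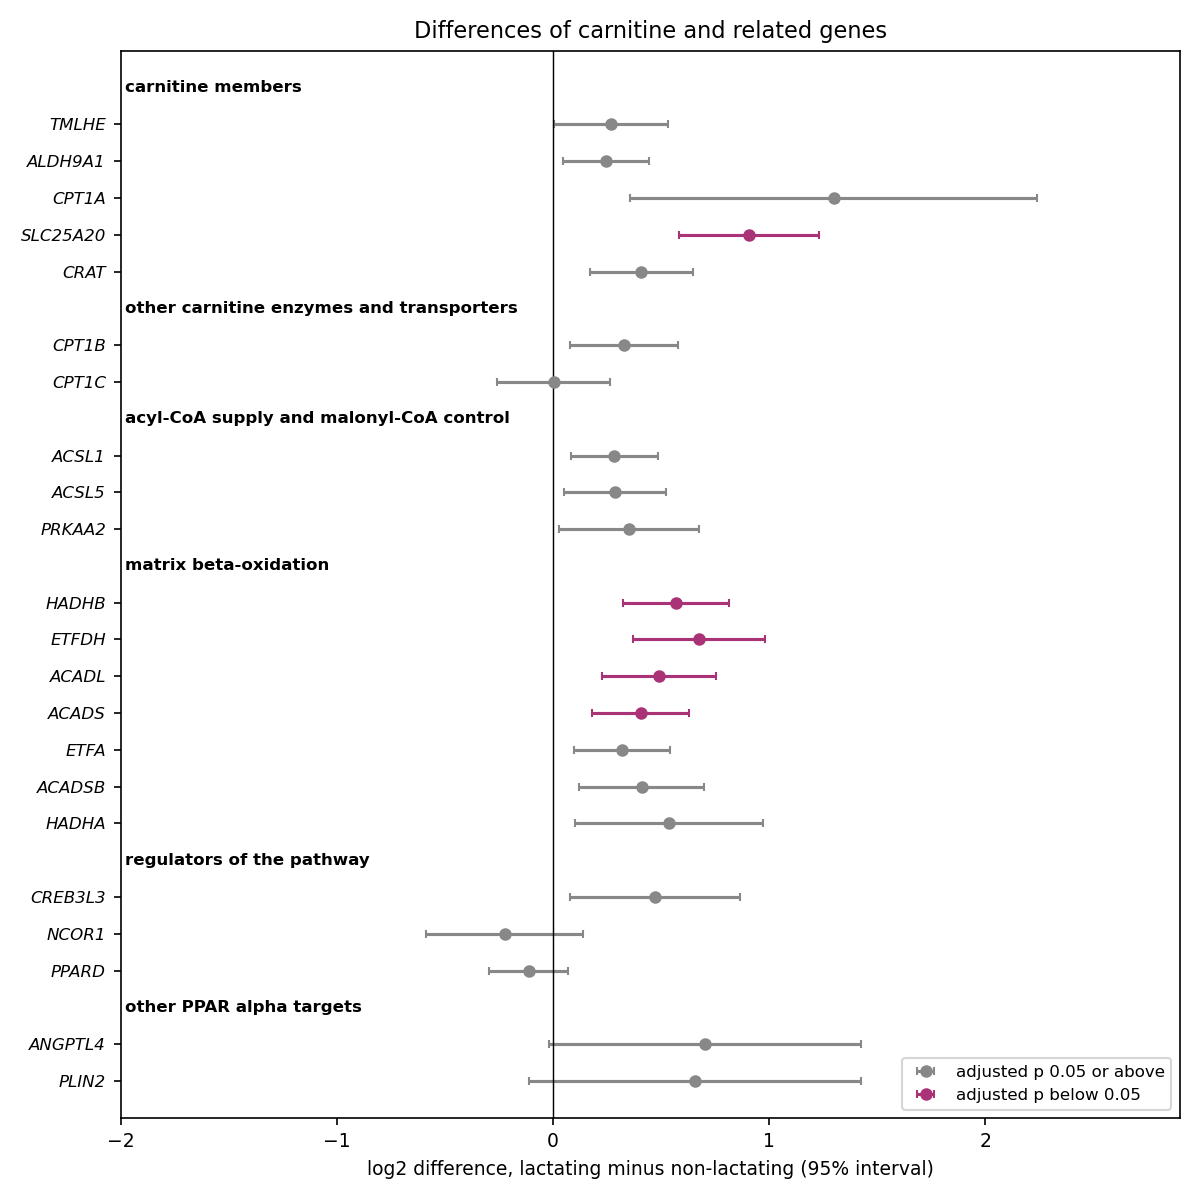
Log2 difference of lactating minus non-lactating pools (horizontal axis) with 95% intervals from limma for the 5 measured carnitine genes and 17 genes of 5 related lists, purple where the adjusted p is below 0.05. SLC25A20 and 4 beta-oxidation genes passed, and among the genes shown CPT1A had the largest difference and the widest interval.

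The other carnitine enzymes and transporters were measured in 2 of 8 cases, and 0 passed (limma). At an unadjusted p below 0.05 there was 1 of 2, against 27.4% of all genes. CPT1B, the muscle form of the outer membrane enzyme, differed by 0.33 ± 0.11 (SE, adjusted p = 0.108) at log2 signals of 5.65 to 6.34. CPT1C, the brain form, differed by 0.0034 ± 0.12 (SE, adjusted p = 0.992), and the sign turned without non-lactating pool 3 or lactating pool 1. Skeletal muscle markers had a mean log2 signal of 5.03 to 5.27 in non-lactating and 5.10 to 5.29 in lactating pools. MB, 1 of the 5 measured, lay higher in every lactating pool (4.61 to 4.65 against 4.25 to 4.53) without passing the threshold (limma adjusted p = 0.168). All MB signals lay below 4.91, the cut under which 25% of probe sets lie. The other measured markers, ACTA1, MYH7, CKM and TNNT3, overlapped between groups, with differences of -0.06, 0.02, 0.01 and 0.02. The part of muscle markers in the value of CPT1B was not tested.

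Outside the naming rule, 2 probe sets carried descriptions of further carnitine acyltransferases and are given as values only. A probe set listed as LOC100521030 and described as moderately similar to human carnitine O-octanoyltransferase, a peroxisomal enzyme, differed by 0.37 ± 0.15 (SE, adjusted p = 0.167). Its lactating pools 1 to 4 gave 11.85, 12.01, 11.84 and 11.26 against 11.28 to 11.48 in non-lactating pools, so that pool 4 alone lay at the non-lactating level. A probe set without a symbol, described as moderately similar to human carnitine palmitoyltransferase II, differed by -0.20 ± 0.10 (SE, adjusted p = 0.246). The annotation notes that 10 of its probes match the opposite strand of a deposited transcript, so it is not used as a measure of CPT2.

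Supply of acyl-CoA and its control by malonyl-CoA were covered by 9 of 12 genes, of which 0 passed (limma). At an unadjusted p below 0.05 there were 3 of 9, against 27.4% of all genes. Of the 9, 7 had positive differences, and the median of the list was 0.17. ACSL1, the main liver synthetase of long-chain acyl-CoA, gave 13.34, 13.34, 13.32 and 13.31 in non-lactating pools and 13.56, 13.47, 13.86 and 13.57 in lactating pools. The groups did not overlap, yet the difference of 0.28 ± 0.09 (SE) did not pass (adjusted p = 0.0899). ACSL5, another synthetase, differed by 0.29 ± 0.11 (SE, adjusted p = 0.135) on its brightest probe set, while its other probe sets passed with 0.52 (adjusted p = 0.0300) and 0.77 (adjusted p = 0.0362). PRKAA2, a catalytic subunit of AMP-activated kinase, differed by 0.35 ± 0.14 (SE, adjusted p = 0.182). MLYCD, which degrades malonyl-CoA, differed by 0.35 ± 0.25 (SE) and ACACA, which makes it, by 0.17 ± 0.11 (SE). Both values are of the brightest probe set, and other probe sets of MLYCD and ACACA are not given here.

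Regulators of the pathway had 0 of 6 measured genes past the threshold (limma) and a median difference of -0.00082. At an unadjusted p below 0.05 there was 1 of 6, against 27.4% of all genes. PPARA differed by -0.07 ± 0.10 (SE, adjusted p = 0.744), with log2 signals of 4.92 to 5.29 in non-lactating and 4.89 to 5.2 in lactating pools. These signals lie near the cut of 4.91 under which 25% of probe sets lie. The other probe set of PPARA is not given here. CREB3L3, a liver transcription factor of fasting, differed by 0.47 ± 0.18 (SE, adjusted p = 0.139). It lay at 9.84 to 9.94 in non-lactating pools and at 10.37, 10.87, 10.45 and 9.85 in lactating pools 1 to 4, so that pool 4 alone stayed at the non-lactating level. Without lactating pool 4 it passed (difference 0.65, adjusted p = 0.0402), and its other probe set passed with all pools (difference 0.69, adjusted p = 0.0374). NCOR1, a corepressor, and PPARD, a receptor related to PPARA, differed by -0.22 ± 0.16 (SE) and -0.11 ± 0.08 (SE), and the 4 other probe sets of NCOR1 ran from -0.05 to 0.07.

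Further targets of PPAR alpha were measured in 7 of 13 cases, of which 0 passed (limma). At an unadjusted p below 0.05 there was 1 of 7, against 27.4% of all genes. Of the 7, 6 had positive differences, and the median of the list was 0.37. ANGPTL4, an inhibitor of lipoprotein lipase, differed by 0.70 ± 0.32 (SE, adjusted p = 0.231), and by 1.01 on its other probe set (adjusted p = 0.0950). PLIN2, a coat protein of lipid droplets, differed by 0.66 ± 0.34 (SE, adjusted p = 0.293), with 9.13 in lactating pool 3 against 7.20 to 7.75 in the other lactating pools.

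**Figure D4:**
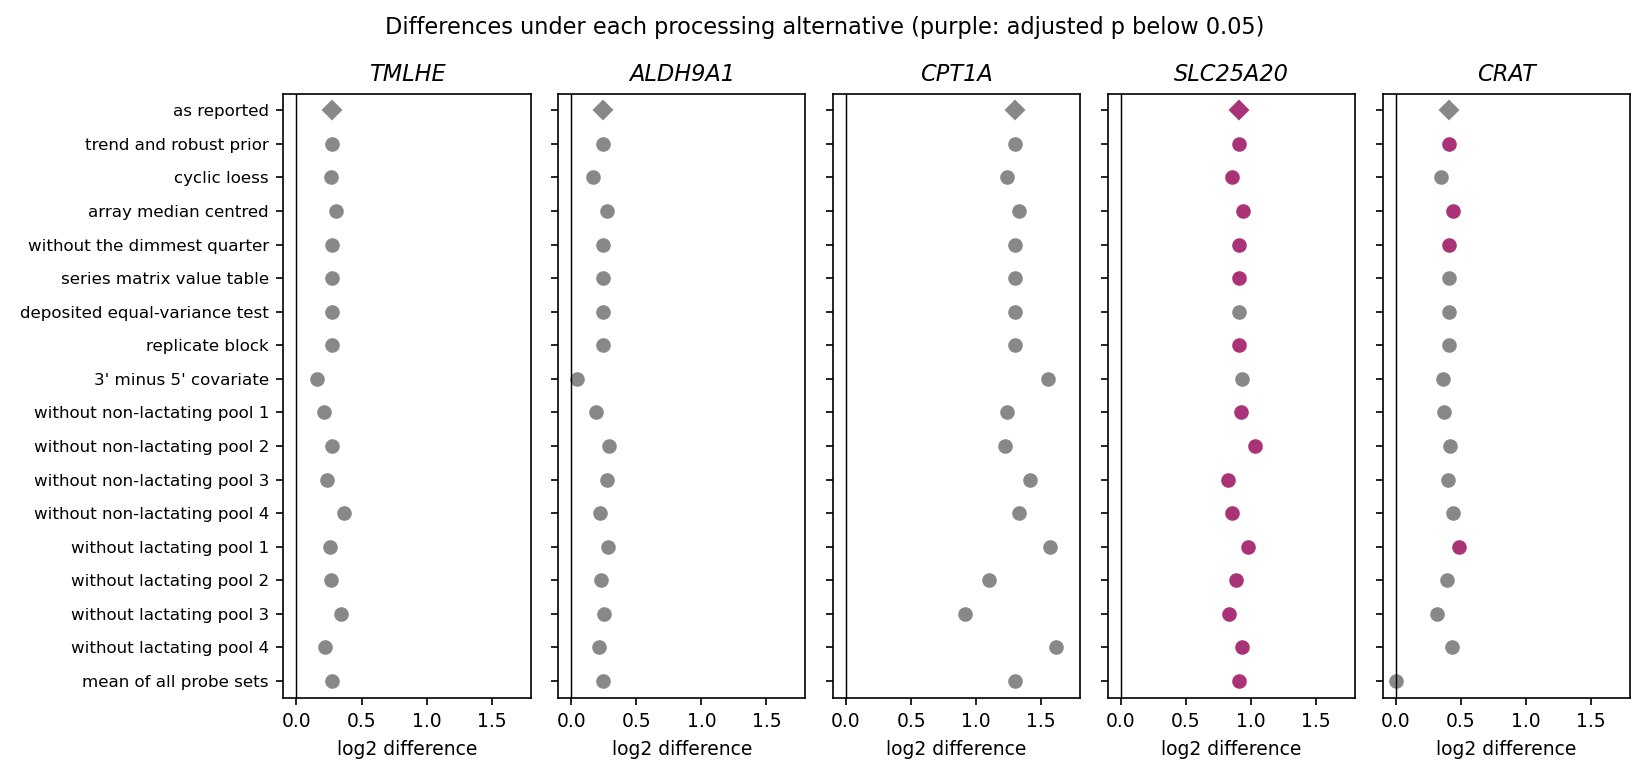
Log2 difference of the 5 measured genes (horizontal axis) as reported and under 17 alternatives of processing or sample choice (vertical axis), purple where the adjusted p is below 0.05. SLC25A20 passed in 15 of 17 alternatives and CRAT in 4, while TMLHE, ALDH9A1 and CPT1A passed in none. Averaging probe sets could change only CRAT.

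All 5 members kept a positive difference in all 17 alternatives, but this was in part built in. Changes of prior, filter, test or block leave a difference as it is. Averaging probe sets does so too for genes with a single probe set. Leaving out a single pool cannot turn the sign where the groups do not overlap. The differences ran from 0.82 to 1.03 for SLC25A20, from 0.92 to 1.61 for CPT1A, from 0.01 to 0.49 for CRAT, from 0.16 to 0.36 for TMLHE and from 0.05 to 0.29 for ALDH9A1. The lowest value of CRAT came from averaging in the second probe set, which is not read here as a value of CRAT. The next lowest was 0.32, without lactating pool 3.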

How the data were processed

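The authors deposited log2 signals per probe set, made with Affymetrix Expression Console and RMA per the submitters' processing notes, with versions not given in the sources used here. RMA corrects background, quantile normalises arrays and summarises probes, so differences are relative to the whole array. The deposited table also held unadjusted p-values of a 2-tailed equal-variance test, per the file headers, recomputed here to within 6.11e-09. A second deposited table gave the same log2 values rounded to 2 decimals. Of 24123 probe sets, 124 controls were left out and 23999 tested. Symbols were updated through the Sscrofa11.1 gene table, by Entrez identifier for 9065 probe sets and by transcript for 29, while 2135 kept the deposited symbol. A gene was represented by its brightest probe set, by the mean of 8 arrays. Lactating minus non-lactating pools were fitted with limma 3.58.1 (lmFit, eBayes) in R 4.3.3, with p-values adjusted by Benjamini-Hochberg over all probe sets and a threshold of 0.05. Every adjusted p in the text comes from limma unless another test is named. Tests were 2-sided. On simulated data for this comparison with the real means and variances of 23999 probe sets, limma recovered 84% of 100 probe sets changed by 1 and 100% of 100 changed by 2 on the log2 scale.

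Named genes were the members, all genes past the threshold in 5 related lists, up to 3 others of each list by p, and the 5 genes most like SLC25A20 and CPT1A within groups, except 2 genes that are not reported here. ACACA, MLYCD, PPARA and the probe sets outside the naming rule were added after their values were seen. Members and lists were chosen with earlier results of these data known. Alternatives were other normalisations, priors, filters and tests, a replicate block, a 3' minus 5' covariate and leaving out each pool. No scan dates were used here, and the number of arrays limits the precision. Macrophage markers were lower for 5 of 8 genes and cholangiocyte markers for 1 of 5, with differences of -0.05 and 0.03 in mean log2 signal. None passed the threshold of limma (1 and 0 at an unadjusted p below 0.05). The 1 macrophage marker was CD163, which was higher in lactating pools (0.24, limma adjusted p = 0.0921).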

Additional observations from a re-analysis of the deposited data

Results flagged for a closer look

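Of 48 groups of 4 pools checked for a pool far from the rest (24 probe sets, both groups), 1 was found, and chance gives about 1 in 20. PPARD, a receptor related to PPAR alpha, had a log2 signal of 6.37 in non-lactating pool 3 against 6.09 to 6.11 in the other non-lactating pools. The gap to the nearest pool took 0.909 of the whole range of the group.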

How the results depend on the processing

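SLC25A20 no longer passed with the deposited equal-variance test (0.91, adjusted p = 0.0669) or with the 3' minus 5' covariate (0.93, adjusted p = 0.328). CRAT passed with the trend and robust prior (0.41), median centring (0.44) and without the dimmest 25% of probe sets (0.41), and its difference ran from 0.32 to 0.49 with single pools left out. The number of member genes past the threshold went from 1 to 2, and that of member probe sets from 1 to 2, under these 3 settings. Both counts, that of genes in the related lists and that of all probe sets were 0 with the equal-variance test, where 3, 4, 10 and 4964 had an unadjusted p below 0.05. They were also 0 with the covariate, where 1, 1, 4 and 2474 did. The covariate separated the groups without overlap, so that fit cannot tell its effect from that of lactation. With the replicate block the counts were 1, 2, 6 and 1790, against 1, 1, 4 and 1643 as reported. With it no call of a member gene changed, while the second CRAT probe set (adjusted p = 0.0414), HADHA (0.0319) and ANGPTL4 (0.0381) passed. The labels do not say that equal pool numbers share anything, and deviations of equally numbered pools correlated at 0.07 to 0.24, with lactating pool 3 closer to non-lactating pool 4 than to its own number.

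With single pools left out, member genes past the threshold numbered 1 to 2 and member probe sets 1 to 3, the highest without lactating pool 1. Genes of the related lists past the threshold numbered 0 to 4, with 0 without non-lactating pools 1 or 4, 2 without lactating pools 2 or 4, 1 without lactating pool 3, and 2 with cyclic loess. In those fits without non-lactating pools 1 and 4, 10 and 14 of these 38 genes had a limma unadjusted p below 0.05. Of all 23999 probe sets, 4491 and 4863 did. The count of all probe sets ran from 406 without non-lactating pool 1 to 1424 without lactating pool 1, with 646 without non-lactating pool 4 and 872, 775 and 598 without lactating pools 2, 3 and 4. CPT1C turned to -0.04 without non-lactating pool 3 and to -0.11 without lactating pool 1, within a range up to 0.066 without lactating pool 4. The causes of these changes were not tested.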
